A study of Homo sapiens with 30 samples.

Results

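The genes described here are 28 genes of cholesterol synthesis and sterol regulation, followed across RNA-sequencing libraries of A549, an established cell line from a human lung adenocarcinoma. They were chosen by symbol, as a list of 7 enzymes of the mevalonate segment, 12 enzymes of the squalene and sterol segment, 4 regulators of the SREBP system, 2 sterol transport genes and 3 targets of the liver X receptors. All 28 were found among the 26801 genes of the deposited table, and all 28 were among the 12086 genes that reached 1 FPKM in at least 3 libraries and were tested. FPKM is the number of fragments scaled to gene length and to library depth, so levels can be set side by side between genes.

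The 30 libraries form 10 groups of 3. The RSRP1 knockout (KOA) was measured in 3 backgrounds named KOA, iR_KOA and iR_KOA_D3, and the wild type (WTA) in 2 backgrounds named iR_WTA and iR_WTA_D3, each with a magnetic exposure labelled 2 H (EX, called exposed here) and with no exposure (NE, called unexposed). The labels use iR and D3 without explaining them, and they are kept here as names; wild-type cells without iR were not analysed here. The field strength of the exposure, the part of RSRP1 that was removed, and whether the knockout line is 1 clone are likewise not given. Whether the 3 libraries of a group came from separate cultures is not stated, so every p-value reflects only the spread among libraries, and part of that spread may be technical.

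Cells make cholesterol from acetyl-CoA by way of mevalonate, farnesyl diphosphate, squalene and lanosterol. When sterols in the endoplasmic reticulum are scarce, SCAP carries the SREBP transcription factors to the Golgi, where they are cleaved and released to switch on the enzyme genes; when sterols are plentiful, the INSIG proteins hold SCAP back. The liver X receptors are activated by oxysterols and raise ABCA1 and ABCG1, which export cholesterol, and MYLIP, a ubiquitin ligase that removes lipoprotein receptors.

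The depth recovered from the steps between low values was 34620432 to 38939336 reads per library, and each of the 28 genes had from 140 reads (ABCG1 in its lowest library) to 23133 reads (HMGCS1 in its highest). RSRP1 stood at 2.09 to 7.95 FPKM in the 18 knockout libraries and at 37.4 to 63.4 FPKM in the 12 wild-type libraries, so the genotype labels hold but the transcript was not at 0 in the knockout. Epithelial and A549 markers (7 of 7 found) summed to 6001 to 8609 FPKM, led by ALDH1A1, AKR1B10, KRT8 and KRT18. Within that list EPCAM was low, with group means of 0.538 to 1.38 FPKM, and the keratin KRT19 was nearly absent from the knockout, with group means of 0.0598 to 0.162 FPKM in knockout cells and 17.4 to 21.7 FPKM in wild-type cells. The leukocyte list (2 of 3 found) summed to 23.7 to 39.6 FPKM, all but a trace of it CD68, with PTPRC at most 0.0411 FPKM. The endothelial list (2 of 2 found) summed to 0 to 1.30 FPKM and the fibroblast list (2 of 2 found) to 0.448 to 3.72 FPKM, and CYP7A1, the 1 hepatocyte marker found of 2, reached at most 0.00962 FPKM.

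The stretches of DNA before the start of the 6 genes that changed in the same direction with exposure in every background are shown first. Each is the 250 bases before the RefSeq start (GRCh38.p14), read along the gene's strand. Capitals mark CCAAT, the box bound by NF-Y, a partner of SREBP at sterol genes, and CACNCCAC, the core of a classical sterol regulatory element, each on either strand (CCAAT on the other strand reads ATTGG). INSIG1 lies at chr7:155297628-155297877 (plus strand), HMGCS1 at chr5:43313413-43313662 (minus strand, the first of 2 listed starts), MSMO1 at chr4:165327419-165327668 (plus strand), HSD17B7 at chr1:162790452-162790701 (plus strand), STARD4 at chr5:111512536-111512785 (minus strand) and ABCA1 at chr9:104928156-104928405 (minus strand).
INSIG1: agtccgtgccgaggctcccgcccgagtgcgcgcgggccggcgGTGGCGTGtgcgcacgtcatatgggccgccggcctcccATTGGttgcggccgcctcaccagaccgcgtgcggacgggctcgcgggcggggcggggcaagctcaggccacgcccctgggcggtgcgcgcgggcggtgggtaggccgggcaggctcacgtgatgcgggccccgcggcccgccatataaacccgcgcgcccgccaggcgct
HMGCS1: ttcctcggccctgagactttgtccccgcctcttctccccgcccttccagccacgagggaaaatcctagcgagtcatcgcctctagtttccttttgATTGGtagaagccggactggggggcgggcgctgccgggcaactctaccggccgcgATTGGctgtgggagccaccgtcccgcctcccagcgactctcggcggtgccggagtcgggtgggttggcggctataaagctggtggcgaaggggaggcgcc
MSMO1: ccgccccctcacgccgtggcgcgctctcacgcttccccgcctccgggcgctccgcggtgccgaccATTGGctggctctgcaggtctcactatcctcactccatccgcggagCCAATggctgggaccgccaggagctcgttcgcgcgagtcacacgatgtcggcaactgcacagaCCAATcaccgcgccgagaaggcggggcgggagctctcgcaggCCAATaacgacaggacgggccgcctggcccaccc
HSD17B7: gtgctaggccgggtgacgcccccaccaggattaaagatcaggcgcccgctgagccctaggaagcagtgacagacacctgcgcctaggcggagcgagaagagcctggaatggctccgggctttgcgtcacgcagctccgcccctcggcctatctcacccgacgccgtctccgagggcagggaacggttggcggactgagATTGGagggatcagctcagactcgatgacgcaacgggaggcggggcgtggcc
STARD4: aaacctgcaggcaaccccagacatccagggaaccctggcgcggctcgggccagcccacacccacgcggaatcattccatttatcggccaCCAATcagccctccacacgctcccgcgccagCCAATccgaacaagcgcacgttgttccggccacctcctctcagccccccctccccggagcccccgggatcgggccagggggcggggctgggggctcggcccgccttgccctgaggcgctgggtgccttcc
ABCA1: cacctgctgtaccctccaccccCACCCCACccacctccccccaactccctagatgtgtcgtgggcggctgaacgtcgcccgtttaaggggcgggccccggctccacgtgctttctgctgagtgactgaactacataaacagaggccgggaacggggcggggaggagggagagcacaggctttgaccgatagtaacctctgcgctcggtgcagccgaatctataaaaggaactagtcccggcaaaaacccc
CCAAT was present in all 5 windows of the genes that were higher with exposure: 4 times in MSMO1, 2 times each in HMGCS1 and STARD4, and 1 time each in INSIG1 and HSD17B7. It was absent from the ABCA1 window, the gene that was lower. These 6 windows were picked by the exposure calls themselves, so the contrast is a description and not a test. The box did not sort the other members by direction. MVK (5 times) and EBP (3 times) held it and were called lower with exposure, in 2 backgrounds and 1 background. IDI1 and NPC1 held it 0 times in their first-listed windows and were each called higher in 4 backgrounds. SC5D, also called higher in 4, held it 1 time. Windows were listed for 24 of the 28 genes, some with more than 1 start, and a gene was counted if any listed start held the letters. By this count 17 of those 24 (70.8%) held CCAAT, against 37.0% of all 27305 genes with a window. CACNCCAC was present by the same count in 5 of 24 (20.8%), against 5.89% of all genes. Among the 6 windows shown it fell in INSIG1 and ABCA1. The longer string TCACNCCAC was found in 1 of the 24, against 1.09% of all genes. A match describes these letters only and does not show binding.

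Levels of the pathway differed far more between backgrounds than with exposure. The 19 enzymes summed to 1046 ± 33.9 FPKM in exposed iR_WTA_D3 libraries and 885.0 ± 15.4 FPKM in unexposed iR_WTA_D3 libraries (SD, n = 3 each, as for all sums here). In iR_WTA the sums were 851 ± 18.3 FPKM with exposure and 782 ± 8.61 FPKM without it. In iR_KOA they were 641 ± 19.4 FPKM with exposure and 624.5 ± 7.12 FPKM without, and in KOA 480.3 ± 2.89 FPKM with exposure and 470.3 ± 5.02 FPKM without. The iR_KOA_D3 groups were lowest together with KOA, at 466 ± 14.8 FPKM with exposure and 435.5 ± 9.09 FPKM without. Of the 19 enzymes, 13 had their highest group mean in exposed iR_WTA_D3 cells. The share of FPKM from mitochondrially encoded genes also differed between backgrounds, from 20.9% in exposed and 21.1% in unexposed iR_WTA cells to 28.1% in exposed and 29.4% in unexposed iR_KOA_D3 cells. FPKM is scaled to the reads of each library, and its sum over all genes was not fixed. That sum ran from 440458 to 449320 in the iR_KOA_D3 libraries and from 414473 to 427563 in the wild-type ones. The part of these sums and of the mitochondrial share in the level differences was not tested.

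**Figure D1:**
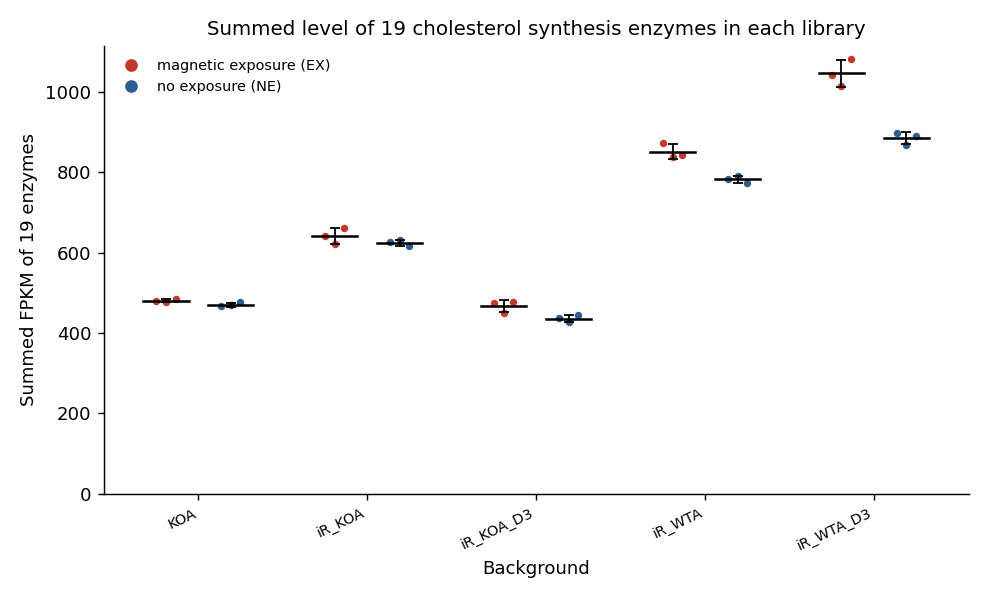
Summed FPKM of the 19 cholesterol synthesis enzymes (vertical axis) in each of the 30 libraries, by background (horizontal axis), with exposed libraries in red to the left of unexposed ones in blue; bars are the mean and SD of 3 libraries. The exposed iR_WTA_D3 libraries stand highest, at a mean of 1046 FPKM, and the iR_KOA_D3 and KOA libraries lowest.

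The first question was how these genes differed with magnetic exposure in each background. INSIG1, the SREBP-retention factor, the enzymes HMGCS1, MSMO1 and HSD17B7 and the sterol carrier STARD4 were called higher with exposure in all 5 backgrounds. The cholesterol exporter ABCA1 was called lower in all 5. Thus 5 of 28 genes were higher in all 5 backgrounds, against 723 of the 12086 tested genes (5.98%). Only 1 of 28 was lower in all 5, against 951 genes (7.87%), which is a smaller share than over all genes. Of these calls, MSMO1 in KOA and HMGCS1 in iR_WTA depended on single libraries, as given below. A gene was called where limma's moderated test on log2(FPKM + 1) gave a Benjamini-Hochberg adjusted p under 0.05 over all tested genes. In a bulk measurement, fewer cells of a kind and less RNA per cell cannot be told apart.

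Counts by background were as follows. In KOA, 8 members were higher and 2 lower, and 41.5% of all tested genes were called in either direction, so the share of members (35.7%) was no larger than that background. In iR_KOA, 9 were higher and 7 lower, against 35.3% of all genes called. In iR_KOA_D3, 11 were higher and 7 lower, against 45.1%. In iR_WTA, 13 were higher and 3 lower, against 28.6%, and in iR_WTA_D3, 14 were higher and 2 lower, against 41.8%. Among genes called higher alone, the background shares were 18.8% in KOA, 13.1% in iR_KOA, 17.3% in iR_KOA_D3, 11.4% in iR_WTA and 15.3% in iR_WTA_D3. Among genes called lower alone they were 22.7% in KOA, 22.3% in iR_KOA, 27.8% in iR_KOA_D3, 17.2% in iR_WTA and 26.5% in iR_WTA_D3. The median log2 difference of the 28 genes was -0.02 in KOA (-0.025 over all tested genes), 0.03 in iR_KOA (-0.05), -0.02 in iR_KOA_D3 (-0.04), 0.11 in iR_WTA (-0.04) and 0.10 in iR_WTA_D3 (-0.05). The split moved with scaling in KOA, where quantile normalization gave 8 higher and 4 lower, and in iR_KOA_D3, where median-of-ratios scaling gave 13 higher and 5 lower. The iR_WTA count fell to 10 without iR_WTA_EX replicate 1. COL1A1, a fibroblast gene, moved with exposure in the same libraries, at 2.23 ± 0.354 FPKM in exposed KOA cells and 0.482 ± 0.0351 FPKM in unexposed KOA cells (SD, n = 3 each; log2 difference 1.12, SE 0.10, adjusted p = 2.77e-09), and was also called higher in iR_WTA (0.59) and iR_WTA_D3 (0.54); PDGFRB, of the same list, stayed under 1 FPKM. The mitochondrially encoded share was 24.4% in exposed and 28.4% in unexposed KOA cells, and differed by less in the other backgrounds. The part of either in the sterol result was not tested.

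**Figure D2:**
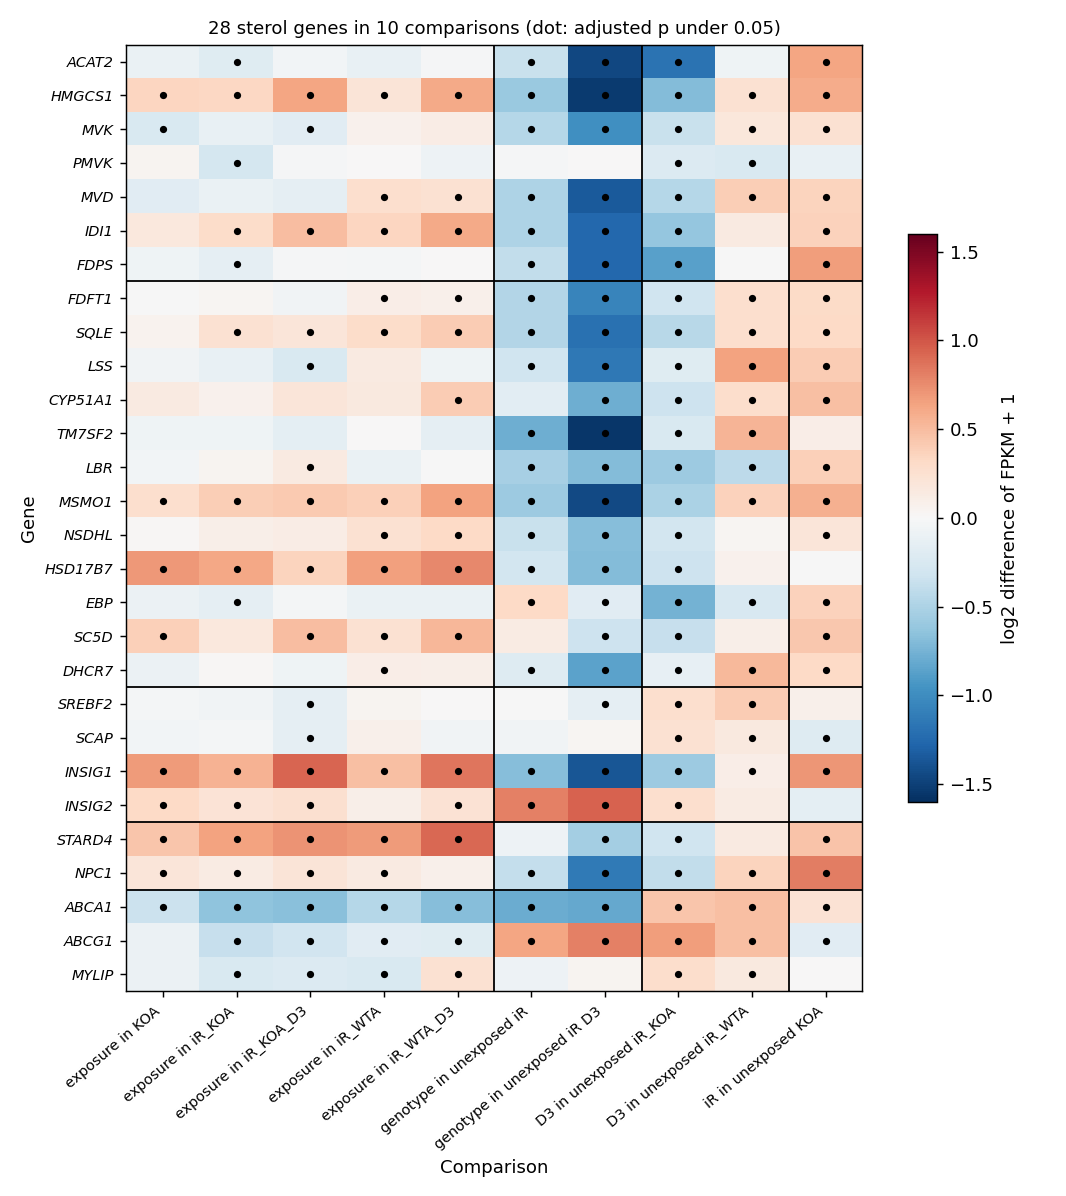
Log2 difference of FPKM + 1 (colour, red higher and blue lower in the group named first by the comparison) of the 28 genes (rows, split by black lines into mevalonate enzymes, sterol branch enzymes, SREBP regulators, transport genes and liver X receptor targets) in 10 comparisons (columns); a dot marks adjusted p under 0.05. INSIG1, HSD17B7, STARD4, HMGCS1 and MSMO1 are red and dotted in all 5 exposure columns, ABCA1 is blue and dotted in all 5, and nearly all enzymes are blue in the genotype columns and in D3 in iR_KOA.

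INSIG1 (chromosome 7, 155297878 to 155310235 in GRCh38.p14) encodes the endoplasmic reticulum protein that retains SCAP and is itself a well known SREBP target. INSIG1 had 52.6, 51.9 and 51.6 FPKM in exposed KOA libraries, against 31.2, 32.8 and 32 FPKM in unexposed KOA libraries. In the iR_KOA background it had 76.5, 81.9 and 76.3 FPKM in exposed iR_KOA libraries, against 53.1, 54.1 and 51.4 FPKM in unexposed iR_KOA libraries. With D3, INSIG1 had 70.3, 63.4 and 70.2 FPKM in exposed iR_KOA_D3 libraries, against 33.5, 35.2 and 36.5 FPKM in unexposed iR_KOA_D3 libraries. Every exposed library lay above every unexposed one in these 3 knockout backgrounds. Levels were higher in wild-type cells, where INSIG1 had 118, 118 and 121 FPKM in exposed iR_WTA libraries, against 83.9, 88.1 and 83.2 FPKM in unexposed iR_WTA libraries. It had 162, 164 and 176 FPKM in exposed iR_WTA_D3 libraries, against 94.6, 88.3 and 92.9 FPKM in unexposed iR_WTA_D3 libraries. The groups did not overlap there either. The log2 difference was 0.68 (SE 0.04, adjusted p = 2.09e-12) in KOA, 0.56 (SE 0.04, adjusted p = 4.15e-10) in iR_KOA and 0.93 (SE 0.04, adjusted p = 9.72e-15) in iR_KOA_D3. It was 0.48 (SE 0.04, adjusted p = 7.68e-09) in iR_WTA and 0.86 (SE 0.04, adjusted p = 7.87e-14) in iR_WTA_D3.

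INSIG2, which encodes the other SCAP-retaining protein, had smaller differences. In KOA it had 10.5, 9.91 and 9.9 FPKM in exposed KOA libraries, against 7.95, 7.9 and 7.79 FPKM in unexposed KOA libraries, without overlap (log2 difference 0.32, SE 0.08, adjusted p = 0.0018). It was also called higher in iR_KOA (log2 difference 0.22), iR_KOA_D3 (0.26) and iR_WTA_D3 (0.24), but not in iR_WTA. The iR_KOA call was lost without any of 5 of the 6 libraries, and the iR_WTA_D3 call without iR_WTA_D3_EX replicate 3 (log2 difference 0.13) or iR_WTA_D3_NE replicate 3 (0.15), where the libraries of the groups overlapped. SREBF2, the SREBP of the cholesterol genes, and SCAP were called in 1 of the 5 backgrounds only, lower in iR_KOA_D3 with log2 differences of -0.15 for SREBF2 and -0.15 for SCAP. The SREBF2 call was lost without either of 2 libraries (adjusted p up to 0.0803) and the SCAP call without any of 4 (adjusted p up to 0.0907).

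HMGCS1 makes HMG-CoA, an intermediate of the mevalonate segment. It had 25.8, 27.8 and 26.3 FPKM in exposed KOA libraries, against 21, 20.9 and 20.3 FPKM in unexposed KOA libraries. In iR_KOA cells HMGCS1 stood at 38.4, 40.2 and 42.4 FPKM in exposed iR_KOA libraries, against 33.5, 32.2 and 29.6 FPKM in unexposed iR_KOA libraries. In iR_KOA_D3 cells it stood at 31.1, 28.4 and 32.2 FPKM in exposed iR_KOA_D3 libraries, against 18.8, 18.7 and 20.4 FPKM in unexposed iR_KOA_D3 libraries. Exposed libraries were above unexposed ones throughout the knockout. In the wild type HMGCS1 had 57.2, 55.4 and 56.8 FPKM in exposed iR_WTA libraries, against 48.6, 51.9 and 45.5 FPKM in unexposed iR_WTA libraries. With D3 it had 81.9, 82.8 and 102 FPKM in exposed iR_WTA_D3 libraries, against 57.5, 57.3 and 58.4 FPKM in unexposed iR_WTA_D3 libraries. The exposed iR_WTA_D3 libraries spread from 81.9 to 102 FPKM, with replicate 3 the highest of all 30. The log2 difference was 0.35 (SE 0.06, adjusted p = 0.000107) in KOA, 0.34 (SE 0.06, adjusted p = 0.000264) in iR_KOA and 0.63 (SE 0.06, adjusted p = 2.14e-08) in iR_KOA_D3. It was 0.21 (SE 0.06, adjusted p = 0.0145) in iR_WTA and 0.60 (SE 0.06, adjusted p = 5.26e-08) in iR_WTA_D3. The iR_WTA call was lost without iR_WTA_EX replicate 1 (log2 difference 0.20, adjusted p = 0.0527) or without iR_WTA_NE replicate 3 (0.17, adjusted p = 0.0932).

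MSMO1 removes the methyl groups at carbon C4 of lanosterol derivatives. MSMO1 had 27, 27.5 and 26 FPKM in exposed KOA libraries, against 22.7, 22.1 and 21.4 FPKM in unexposed KOA libraries. Its iR_KOA values were 42.3, 47.7 and 41.5 FPKM in exposed iR_KOA libraries, against 35, 36.1 and 28.7 FPKM in unexposed iR_KOA libraries. Its iR_KOA_D3 values were 30.8, 28.8 and 34.7 FPKM in exposed iR_KOA_D3 libraries, against 21.7, 21.7 and 26.1 FPKM in unexposed iR_KOA_D3 libraries. None of these pairs of groups overlapped. In the wild type, MSMO1 had 70.2, 63 and 63.6 FPKM in exposed iR_WTA libraries, against 46.5, 58.5 and 45.7 FPKM in unexposed iR_WTA libraries. In iR_WTA_D3 cells it had 100.1, 85.5 and 121 FPKM in exposed iR_WTA_D3 libraries, against 66.6, 62.6 and 64.9 FPKM in unexposed iR_WTA_D3 libraries. The 3 exposed iR_WTA_D3 libraries were the 3 highest of the series and also the most spread. The log2 difference was 0.27 (SE 0.10, adjusted p = 0.0398) in KOA, 0.39 (SE 0.10, adjusted p = 0.00519) in iR_KOA, 0.42 (SE 0.10, adjusted p = 0.00171) in iR_KOA_D3, 0.38 (SE 0.10, adjusted p = 0.00687) in iR_WTA and 0.64 (SE 0.10, adjusted p = 2.58e-05) in iR_WTA_D3. The KOA call was lost when any 1 of its 6 libraries was left out, with adjusted p from 0.0555 to 0.107.

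HSD17B7 carries out the keto reduction that ends C4 demethylation, downstream of MSMO1. It had 12.9, 12.5 and 12.8 FPKM in exposed KOA libraries, against 7.05, 7.4 and 7.99 FPKM in unexposed KOA libraries. In iR_KOA it had 12.7, 11.6 and 11.5 FPKM in exposed iR_KOA libraries, against 7.59, 7.04 and 7.58 FPKM in unexposed iR_KOA libraries. In iR_KOA_D3 it had 7.56, 7.27 and 7.93 FPKM in exposed iR_KOA_D3 libraries, against 5.73, 5.82 and 5.48 FPKM in unexposed iR_KOA_D3 libraries. The gap was narrower in iR_KOA_D3 than in the other knockout backgrounds, with no overlap in any. In iR_WTA cells HSD17B7 had 16.4, 16.3 and 13.4 FPKM in exposed iR_WTA libraries, against 9.96, 9.12 and 8.97 FPKM in unexposed iR_WTA libraries. In iR_WTA_D3 cells it had 19, 17.8 and 16 FPKM in exposed iR_WTA_D3 libraries, against 9.96, 9.36 and 10.2 FPKM in unexposed iR_WTA_D3 libraries. These groups were likewise apart. The log2 difference was 0.70 (SE 0.06, adjusted p = 3.8e-09) in KOA, 0.62 (SE 0.06, adjusted p = 9.32e-08) in iR_KOA, 0.36 (SE 0.06, adjusted p = 6.64e-05) in iR_KOA_D3, 0.66 (SE 0.06, adjusted p = 4.4e-08) in iR_WTA and 0.77 (SE 0.06, adjusted p = 1.22e-09) in iR_WTA_D3. NSDHL, which acts between MSMO1 and HSD17B7 in the same demethylation, was called higher in the wild type only, by 0.24 in iR_WTA and 0.32 in iR_WTA_D3.

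STARD4 is a soluble protein that shuttles cholesterol between membranes. STARD4 had 3.72, 3.68 and 3.77 FPKM in exposed KOA libraries, against 2.45, 2.47 and 2.53 FPKM in unexposed KOA libraries. It had 6.16, 7.33 and 5.84 FPKM in exposed iR_KOA libraries, against 4, 4.18 and 3.18 FPKM in unexposed iR_KOA libraries. With D3 in the knockout it had 5.34, 4.84 and 5.74 FPKM in exposed iR_KOA_D3 libraries, against 2.46, 2.7 and 3.36 FPKM in unexposed iR_KOA_D3 libraries. Exposed libraries were all above unexposed ones. In iR_WTA cells it had 7.85, 6.64 and 6.66 FPKM in exposed iR_WTA libraries, against 3.65, 4.62 and 3.87 FPKM in unexposed iR_WTA libraries. In iR_WTA_D3 cells STARD4 had 9.22, 8.15 and 11.3 FPKM in exposed iR_WTA_D3 libraries, against 4.56, 4.55 and 4.57 FPKM in unexposed iR_WTA_D3 libraries, the largest exposure difference of any of the 28 genes in that background. The log2 difference was 0.44 (SE 0.10, adjusted p = 0.000949) in KOA, 0.64 (SE 0.10, adjusted p = 2.8e-05) in iR_KOA, 0.72 (SE 0.10, adjusted p = 2.5e-06) in iR_KOA_D3, 0.68 (SE 0.10, adjusted p = 1.53e-05) in iR_WTA and 0.91 (SE 0.10, adjusted p = 8.86e-08) in iR_WTA_D3. NPC1, which brings cholesterol out of lysosomes, was called higher in 4 backgrounds by smaller amounts (0.19 in KOA, 0.13 in iR_KOA, 0.21 in iR_KOA_D3 and 0.14 in iR_WTA), and its iR_WTA_D3 difference of 0.08 did not pass.

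**Figure D3:**
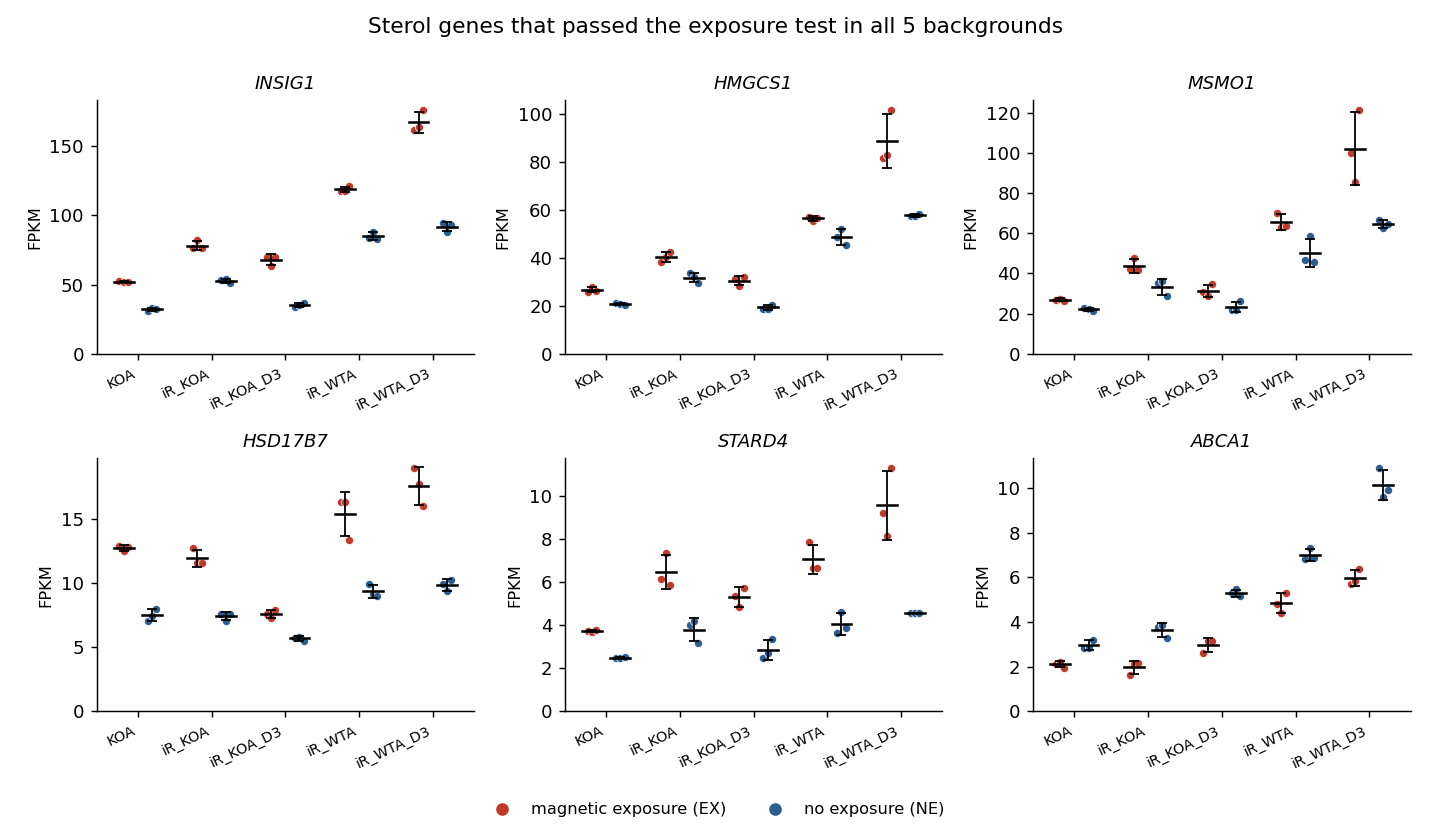
FPKM (vertical axes) of the 6 genes called in the same direction in all 5 backgrounds, in every library, with exposed libraries in red to the left of unexposed ones in blue; bars are the mean and SD of 3 libraries. Red points lie above blue ones in every background for INSIG1, HMGCS1, MSMO1, HSD17B7 and STARD4, and below them for ABCA1.

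ABCA1, the exporter of cholesterol to apolipoproteins, moved the other way. ABCA1 had 2.13, 2.23 and 1.96 FPKM in exposed KOA libraries, against 2.82, 2.84 and 3.22 FPKM in unexposed KOA libraries. In iR_KOA cells it had 1.64, 2.1 and 2.19 FPKM in exposed iR_KOA libraries, against 3.79, 3.86 and 3.28 FPKM in unexposed iR_KOA libraries. In iR_KOA_D3 cells ABCA1 had 2.62, 3.14 and 3.17 FPKM in exposed iR_KOA_D3 libraries, against 5.29, 5.46 and 5.15 FPKM in unexposed iR_KOA_D3 libraries. All exposed libraries were below all unexposed ones. Wild-type cells had more of it, 4.83, 4.42 and 5.3 FPKM in exposed iR_WTA libraries, against 6.84, 7.32 and 6.86 FPKM in unexposed iR_WTA libraries. In iR_WTA_D3 cells it had 5.72, 5.82 and 6.37 FPKM in exposed iR_WTA_D3 libraries, against 10.9, 9.62 and 9.93 FPKM in unexposed iR_WTA_D3 libraries. The log2 difference was -0.35 (SE 0.07, adjusted p = 0.000362) in KOA, -0.64 (SE 0.07, adjusted p = 2.85e-07) in iR_KOA, -0.66 (SE 0.07, adjusted p = 6.63e-08) in iR_KOA_D3, -0.46 (SE 0.07, adjusted p = 3.69e-05) in iR_WTA and -0.68 (SE 0.07, adjusted p = 5.85e-08) in iR_WTA_D3.

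The other liver X receptor targets were less uniform. ABCG1, an exporter to lipoprotein particles, was near the lower limit of the test, and in iR_KOA it had 0.776, 0.84 and 0.916 FPKM in exposed iR_KOA libraries, against 1.36, 1.31 and 1.45 FPKM in unexposed iR_KOA libraries (log2 difference -0.36, SE 0.06, adjusted p = 5.23e-05). It was also called lower in iR_KOA_D3 (-0.30), iR_WTA (-0.18) and iR_WTA_D3 (-0.20), where the log2(FPKM + 1) scale understates the change of so low a gene. The iR_WTA call was lost without any of 4 of the 6 libraries, and the iR_WTA_D3 call without iR_WTA_D3_NE replicate 3 (log2 difference -0.15, adjusted p = 0.0728). MYLIP was called lower in iR_KOA (-0.24), iR_KOA_D3 (-0.22) and iR_WTA (-0.24), and higher in iR_WTA_D3 (0.25). There MYLIP had 6.4, 5.71 and 5.69 FPKM in exposed iR_WTA_D3 libraries, against 4.73, 5.29 and 4.5 FPKM in unexposed iR_WTA_D3 libraries.

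IDI1, the isomerase that makes dimethylallyl diphosphate, and SC5D, which forms the C5 double bond late in the pathway, were called higher in 4 of 5 backgrounds. In iR_WTA_D3 cells, IDI1 had 48.2, 42.7 and 58.3 FPKM in exposed iR_WTA_D3 libraries, against 32.9, 30.8 and 32.8 FPKM in unexposed iR_WTA_D3 libraries. In iR_KOA_D3 cells it had 18.6, 17.5 and 19.8 FPKM in exposed iR_KOA_D3 libraries, against 13.2, 12.4 and 13.1 FPKM in unexposed iR_KOA_D3 libraries. Its smaller rises were in iR_WTA, with 39.8, 34.6 and 37.7 FPKM in exposed iR_WTA libraries, against 27.7, 32.6 and 27.5 FPKM in unexposed iR_WTA libraries. In these 3 backgrounds the IDI1 groups were apart. The log2 differences of IDI1 were 0.60 (SE 0.08, adjusted p = 1.85e-06) in iR_WTA_D3, 0.50 (SE 0.08, adjusted p = 2.08e-05) in iR_KOA_D3, 0.35 (SE 0.08, adjusted p = 0.00204) in iR_WTA and 0.30 (SE 0.08, adjusted p = 0.00613) in iR_KOA. In iR_KOA it had 24.4, 26.1 and 25.1 FPKM in exposed iR_KOA libraries, against 21.7, 21.4 and 18.1 FPKM in unexposed iR_KOA libraries, and the call there was lost without iR_KOA_NE replicate 3, the lowest unexposed library (log2 difference 0.22, adjusted p = 0.0572). SC5D had 4.81, 4.93 and 4.97 FPKM in exposed KOA libraries, against 4.06, 3.47 and 3.09 FPKM in unexposed KOA libraries (log2 difference 0.39, SE 0.09, adjusted p = 0.00108). In iR_KOA_D3 it had 5.53, 5.4 and 6.02 FPKM in exposed iR_KOA_D3 libraries, against 3.41, 3.56 and 4.21 FPKM in unexposed iR_KOA_D3 libraries (log2 difference 0.50, SE 0.09, adjusted p = 7.07e-05). In iR_WTA_D3 it had 7.12, 6.78 and 8.84 FPKM in exposed iR_WTA_D3 libraries, against 5.08, 4.57 and 5.11 FPKM in unexposed iR_WTA_D3 libraries (log2 difference 0.53, SE 0.09, adjusted p = 3.92e-05). The groups were apart in all of these. The SC5D call in iR_WTA (log2 difference 0.25) was lost without any of 5 of the 6 libraries, with adjusted p up to 0.164.

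SQLE, the epoxidase at a rate-limiting step after squalene, was called higher in 4 backgrounds by 0.24 in iR_KOA, 0.20 in iR_KOA_D3, 0.30 in iR_WTA and 0.40 in iR_WTA_D3. In iR_WTA cells SQLE had 76.3, 74.9 and 78.3 FPKM in exposed iR_WTA libraries, against 62.2, 63 and 60.6 FPKM in unexposed iR_WTA libraries (log2 difference 0.30, SE 0.03, adjusted p = 3.45e-07). MVD, which decarboxylates mevalonate diphosphate, had 24.5, 23.5 and 22.9 FPKM in exposed iR_WTA libraries, against 19.8, 18.7 and 19.9 FPKM in unexposed iR_WTA libraries (log2 difference 0.27, SE 0.08, adjusted p = 0.0162). The MVD call was lost without iR_WTA_EX replicate 1 (0.24, adjusted p = 0.0695) or iR_WTA_NE replicate 2 (0.24, adjusted p = 0.0657). Of the 19 enzymes, 10 were called higher and 0 lower by limma in each of iR_WTA and iR_WTA_D3. At an unadjusted p under 0.05, counted in either direction, there were 12 in each. In iR_WTA the DHCR7 call (0.11) was lost without any 1 of the 6 libraries, and the FDFT1 call (0.11) without either of 2. In iR_WTA_D3 the FDFT1 (0.08) and MVD (0.24) calls were each lost without any of 4 of the 6 libraries. In the knockout, the enzymes went both ways, with 4 higher and 1 lower in KOA, 5 higher and 4 lower in iR_KOA, and 7 higher and 2 lower in iR_KOA_D3. The lower ones were MVK, the mevalonate kinase (-0.24), in KOA, and ACAT2 (-0.20), PMVK (-0.28), FDPS (-0.14) and EBP (-0.14) in iR_KOA, the thiolase, phosphomevalonate kinase, farnesyl diphosphate synthase and sterol isomerase. The MVK call was lost without KOA_EX replicate 1 (adjusted p = 0.0974), and each of the 4 calls in iR_KOA without iR_KOA_EX replicate 2 (adjusted p from 0.163 to 0.251). LSS, the cyclase that makes lanosterol, was lower in iR_KOA_D3 (log2 difference -0.25, SE 0.06, adjusted p = 0.000747), as was MVK (-0.19), whose call was lost without any of 5 of the 6 libraries (adjusted p up to 0.0938). Among the 7 higher enzymes in iR_KOA_D3, LBR (0.14) lost its call without any of 3 of the 6 libraries (adjusted p up to 0.322). It also lost it under 3 other settings (adjusted p up to 0.0927). CYP51A1, the lanosterol demethylase, was called in iR_WTA_D3 only (0.41), and TM7SF2 was the 1 member called in none of the 5, with log2 differences from -0.16 to 0.01.

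Whether the exposure difference itself depended on genotype, D3 or iR was tested with interaction terms. In iR cells without D3, the difference between genotypes passed limma's threshold for 0 of 28 members, with 4 at an unadjusted p under 0.05 and 0 called by voom on recovered reads, and for 0.538% of all genes. With D3, 3 members had a smaller exposure difference in the knockout than in the wild type, against 2.38% of all genes called in either direction (1.24% higher and 1.14% lower): MYLIP (log2 difference -0.47, SE 0.09, adjusted p = 0.00459), HSD17B7 (log2 difference -0.41, SE 0.09, adjusted p = 0.0139) and SQLE (log2 difference -0.21, SE 0.05, adjusted p = 0.0177). MYLIP fell with exposure in the knockout and rose in the wild type. HSD17B7 lost its call with voom (adjusted p = 0.0721) and SQLE without any of 4 of the 12 libraries (adjusted p up to 0.0581). SQLE also lost it with quantile normalization (adjusted p = 0.054) and with only the compared groups fitted (adjusted p = 0.164).

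D3 went with a larger exposure rise of INSIG1 in both genotypes. In the knockout, 1 of 28 members was called, against 4.14% of all genes (1.74% higher and 2.4% lower), and it was INSIG1 (log2 difference 0.38, SE 0.06, adjusted p = 0.000615). In the wild type, 3 were called, against 1.67% of all genes (0.753% higher and 0.918% lower): INSIG1 (log2 difference 0.38, SE 0.06, adjusted p = 0.00103), MYLIP (log2 difference 0.49, SE 0.09, adjusted p = 0.00431) and HMGCS1 (log2 difference 0.39, SE 0.09, adjusted p = 0.0253). HMGCS1 lost this call without any of 6 of the 12 libraries, among them iR_WTA_D3_EX replicate 3 (log2 difference 0.29, adjusted p = 0.0663). With only the compared groups fitted, the MYLIP (adjusted p = 0.0509) and HMGCS1 (adjusted p = 0.132) calls in the wild type were lost. Between KOA and iR_KOA, 1 member was called, against 5.08% of all genes (1.66% higher and 3.42% lower): SQLE, whose exposure rise was larger in iR_KOA (log2 difference 0.18, SE 0.05, adjusted p = 0.0251) but was lost without any of 5 of the 12 libraries, with adjusted p up to 0.0667.

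The next comparison set knockout against wild-type cells, both unexposed and both iR. Cholesterol synthesis genes were lower in the knockout: 18 members were lower and 3 higher without D3, against 65.3% of all genes called in either direction (27.9% higher and 37.4% lower). With D3, 23 were lower and 2 higher, against 69.1% called in either direction (24.8% higher and 44.3% lower). Of the 19 enzymes, 15 were lower and 1 higher without D3, and 18 were lower with D3, PMVK being the exception with a log2 difference of 0.01. With median-of-ratios scaling the D3 calls of EBP (adjusted p = 0.0916) and SREBF2 (adjusted p = 0.454) were lost. SREBF2 was also lost with quantile normalization (adjusted p = 0.344) and without either of 2 libraries. The median of the 28 genes was -0.36 without D3 (-0.06 over all genes) and -0.84 with D3 (-0.11 over all genes).

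Without D3, TM7SF2, a sterol C14 reductase, had 8.03, 8.2 and 9.46 FPKM in iR_KOA libraries, against 15.1, 15.3 and 15.7 FPKM in iR_WTA libraries (log2 difference -0.78, SE 0.09, adjusted p = 1.81e-08). INSIG1 had 53.1, 54.1 and 51.4 FPKM in iR_KOA libraries, against 83.9, 88.1 and 83.2 FPKM in iR_WTA libraries (log2 difference -0.68, SE 0.04, adjusted p = 3.55e-13). HMGCS1 had 33.5, 32.2 and 29.6 FPKM in iR_KOA libraries, against 48.6, 51.9 and 45.5 FPKM in iR_WTA libraries (log2 difference -0.60, SE 0.06, adjusted p = 9.7e-09). These were apart by a wide margin. ABCA1 was also lower in the knockout, with 3.79, 3.86 and 3.28 FPKM in iR_KOA libraries, against 6.84, 7.32 and 6.86 FPKM in iR_WTA libraries (log2 difference -0.79, SE 0.07, adjusted p = 5.84e-10). INSIG2 ran against INSIG1, with 6.94, 7.4 and 6.6 FPKM in iR_KOA libraries, against 3.38, 3.62 and 3.63 FPKM in iR_WTA libraries (log2 difference 0.81, SE 0.08, adjusted p = 1.45e-09). ABCG1 ran against ABCA1, with 1.36, 1.31 and 1.45 FPKM in iR_KOA libraries, against 0.404, 0.576 and 0.626 FPKM in iR_WTA libraries (log2 difference 0.63, SE 0.06, adjusted p = 1.22e-09). So in the knockout INSIG2 and ABCG1 were higher while their partners INSIG1 and ABCA1 were lower, and EBP was the third member called higher (0.32).

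With D3, the 6 largest genotype differences were all decreases. TM7SF2 had 6.92, 7.28 and 7.03 FPKM in iR_KOA_D3 libraries, against 22, 24.6 and 21.9 FPKM in iR_WTA_D3 libraries (log2 difference -1.56, SE 0.09, adjusted p = 2.06e-14). HMGCS1 had 18.8, 18.7 and 20.4 FPKM in iR_KOA_D3 libraries, against 57.5, 57.3 and 58.4 FPKM in iR_WTA_D3 libraries (log2 difference -1.53, SE 0.06, adjusted p = 5.86e-17). ACAT2, the thiolase that starts the pathway, had 16.6, 14.9 and 14.6 FPKM in iR_KOA_D3 libraries, against 45.5, 41.5 and 45.2 FPKM in iR_WTA_D3 libraries (log2 difference -1.46, SE 0.07, adjusted p = 4.47e-16). No knockout library came near the wild-type ones. MSMO1 had 21.7, 21.7 and 26.1 FPKM in iR_KOA_D3 libraries, against 66.6, 62.6 and 64.9 FPKM in iR_WTA_D3 libraries (log2 difference -1.45, SE 0.10, adjusted p = 4.31e-12). INSIG1 had 33.5, 35.2 and 36.5 FPKM in iR_KOA_D3 libraries, against 94.6, 88.3 and 92.9 FPKM in iR_WTA_D3 libraries (log2 difference -1.37, SE 0.04, adjusted p = 1.13e-19). MVD had 10.8, 10.5 and 8 FPKM in iR_KOA_D3 libraries, against 26.8, 25.4 and 25.8 FPKM in iR_WTA_D3 libraries (log2 difference -1.34, SE 0.08, adjusted p = 1.51e-13). INSIG2 and ABCG1 were again higher in the knockout, by 0.95 and 0.81 on the log2 scale.

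Other measures moved with genotype in the same libraries. KRT19, an epithelial keratin, averaged 0.162 ± 0.146 FPKM in iR_KOA cells and 17.5 ± 1.14 FPKM in iR_WTA cells, both unexposed (SD, n = 3 each). CDH5, an endothelial cadherin, averaged 1.26 ± 0.0407 FPKM in iR_KOA_D3 cells and 0.00651 ± 0.0113 FPKM in iR_WTA_D3 cells, while PECAM1 stayed under 1 FPKM in all libraries. Mitochondrially encoded genes made up 24.6% of FPKM in iR_KOA cells and 21.1% in iR_WTA cells, and 29.4% in iR_KOA_D3 cells and 22.9% in iR_WTA_D3 cells. Their part in the genotype result was not tested, and loss of RSRP1 and any other difference between the 2 lines cannot be told apart.

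The D3 comparison, in unexposed iR cells, ran in opposite directions in the genotypes for 10 of the 19 enzymes. In the knockout, D3 went with lower levels of all 19 enzymes. In the wild type, it went with higher levels of 10 of them and lower levels of 3, and the others were not called. Over the 28 genes, 22 were lower and 6 higher in the knockout, against 53.7% of all genes called (19.2% higher and 34.5% lower), and 17 were higher and 3 lower in the wild type, against 48.7% called (22.3% higher and 26.3% lower). The median of the members was -0.33 in the knockout (-0.06 over all genes) and 0.17 in the wild type (-0.015 over all genes). With median-of-ratios scaling, and likewise with quantile normalization, 18 rather than 22 members were lower in the knockout: DHCR7, LSS, PMVK and TM7SF2 no longer passed, which leaves 15 of the 19 enzymes.

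In the knockout ACAT2 had 16.6, 14.9 and 14.6 FPKM in iR_KOA_D3 libraries, against 37.8, 35.4 and 34.8 FPKM in iR_KOA libraries (log2 difference -1.18, SE 0.07, adjusted p = 1.35e-13). FDPS, the farnesyl diphosphate synthase, had 49.6, 46.7 and 48.8 FPKM in iR_KOA_D3 libraries, against 88.7, 89.8 and 88.6 FPKM in iR_KOA libraries (log2 difference -0.87, SE 0.04, adjusted p = 1.78e-14). EBP had 46, 43.7 and 44.4 FPKM in iR_KOA_D3 libraries, against 72.9, 77.6 and 79 FPKM in iR_KOA libraries (log2 difference -0.76, SE 0.05, adjusted p = 4.01e-13). All of these were well under the libraries without D3. HMGCS1 had 18.8, 18.7 and 20.4 FPKM in iR_KOA_D3 libraries, against 33.5, 32.2 and 29.6 FPKM in iR_KOA libraries (log2 difference -0.69, SE 0.06, adjusted p = 1.54e-09). IDI1 had 13.2, 12.4 and 13.1 FPKM in iR_KOA_D3 libraries, against 21.7, 21.4 and 18.1 FPKM in iR_KOA libraries (log2 difference -0.62, SE 0.08, adjusted p = 5e-07). ABCG1 went up instead, with 2.97, 2.61 and 2.7 FPKM in iR_KOA_D3 libraries, against 1.36, 1.31 and 1.45 FPKM in iR_KOA libraries (log2 difference 0.66, SE 0.06, adjusted p = 9.67e-10). The other 5 members that were higher with D3 in the knockout were ABCA1 (0.44), MYLIP (0.28), INSIG2 (0.27), SREBF2 (0.27) and SCAP (0.24), none of them an enzyme.

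In the wild type LSS had 32.6, 31.7 and 33.1 FPKM in iR_WTA_D3 libraries, against 20.7, 20.0 and 20.6 FPKM in iR_WTA libraries (log2 difference 0.64, SE 0.06, adjusted p = 6.86e-10). TM7SF2 had 22, 24.6 and 21.9 FPKM in iR_WTA_D3 libraries, against 15.1, 15.3 and 15.7 FPKM in iR_WTA libraries (log2 difference 0.54, SE 0.09, adjusted p = 1.26e-05). DHCR7, which makes cholesterol from 7-dehydrocholesterol, had 118, 113 and 114 FPKM in iR_WTA_D3 libraries, against 80.8, 76.8 and 81.4 FPKM in iR_WTA libraries (log2 difference 0.52, SE 0.04, adjusted p = 1.61e-10). No library with D3 fell among those without it for these 3 enzymes. ABCG1 had 1.11, 1.04 and 1.28 FPKM in iR_WTA_D3 libraries, against 0.404, 0.576 and 0.626 FPKM in iR_WTA libraries (log2 difference 0.48, SE 0.06, adjusted p = 3.5e-07). ABCA1 had 10.9, 9.62 and 9.93 FPKM in iR_WTA_D3 libraries, against 6.84, 7.32 and 6.86 FPKM in iR_WTA libraries (log2 difference 0.48, SE 0.07, adjusted p = 6.25e-06). LBR, the lamin B receptor with sterol C14 reductase activity, fell, with 25.6, 25.3 and 25.5 FPKM in iR_WTA_D3 libraries, against 32.2, 37.5 and 33.4 FPKM in iR_WTA libraries (log2 difference -0.41, SE 0.06, adjusted p = 1.25e-06). All 3 liver X receptor targets were thus higher with D3 in both genotypes, although the MYLIP call in the wild type (0.16) was lost without any of 5 of the 6 libraries. SREBF2 and SCAP were also higher in both, and the SCAP call in the wild type (0.15) was lost without any of 3 of the 6 libraries (adjusted p up to 0.0999). The wild-type calls of MVK (0.18) and INSIG1 (0.11) were each lost without any of 4 of the 6 libraries, and with no filter. Without 1 library, adjusted p rose up to 0.148 for MVK and 0.133 for INSIG1.

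The difference between these D3 effects was tested directly. It was called for 20 of 28 members, all with a lower D3 effect in the knockout, against 17.5% of all genes in either direction (5.19% higher and 12.3% lower). They were 17 of the 19 enzymes, with INSIG1, STARD4 and NPC1; the enzymes not called were PMVK and LBR. LBR was lower with D3 in both genotypes, and so was PMVK, but the PMVK call was lost without any of 5 of the 6 libraries in the knockout (adjusted p up to 0.145) and without any of 4 of the 6 in the wild type (adjusted p up to 0.134). The largest terms were for ACAT2 (log2 difference -1.10, SE 0.10, adjusted p = 4.76e-09), HMGCS1 (log2 difference -0.93, SE 0.09, adjusted p = 3.55e-08), MSMO1 (log2 difference -0.87, SE 0.15, adjusted p = 0.000117) and FDPS (log2 difference -0.86, SE 0.06, adjusted p = 3.56e-10). For some genes the term was not a reversal. ACAT2 and FDPS were lower with D3 in the knockout and not called in the wild type. EBP was lower in both genotypes (-0.76 in the knockout and -0.25 in the wild type). STARD4 was the least stable, its call being lost without any of 6 of the 12 libraries (adjusted p up to 0.075). None of the 3 liver X receptor targets was called. In the same test KRT19 (-0.42) and the macrophage protein CD68 (-0.58) were lower and CDH5 (0.56) higher, and the mitochondrially encoded share was 29.4% with D3 and 24.6% without it in the knockout, and 22.9% with D3 and 21.1% without it in the wild type; their part in the D3 result was not tested. The genotype and D3 comparisons use the same 4 groups, so their results are not separate.

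**Figure D4:**
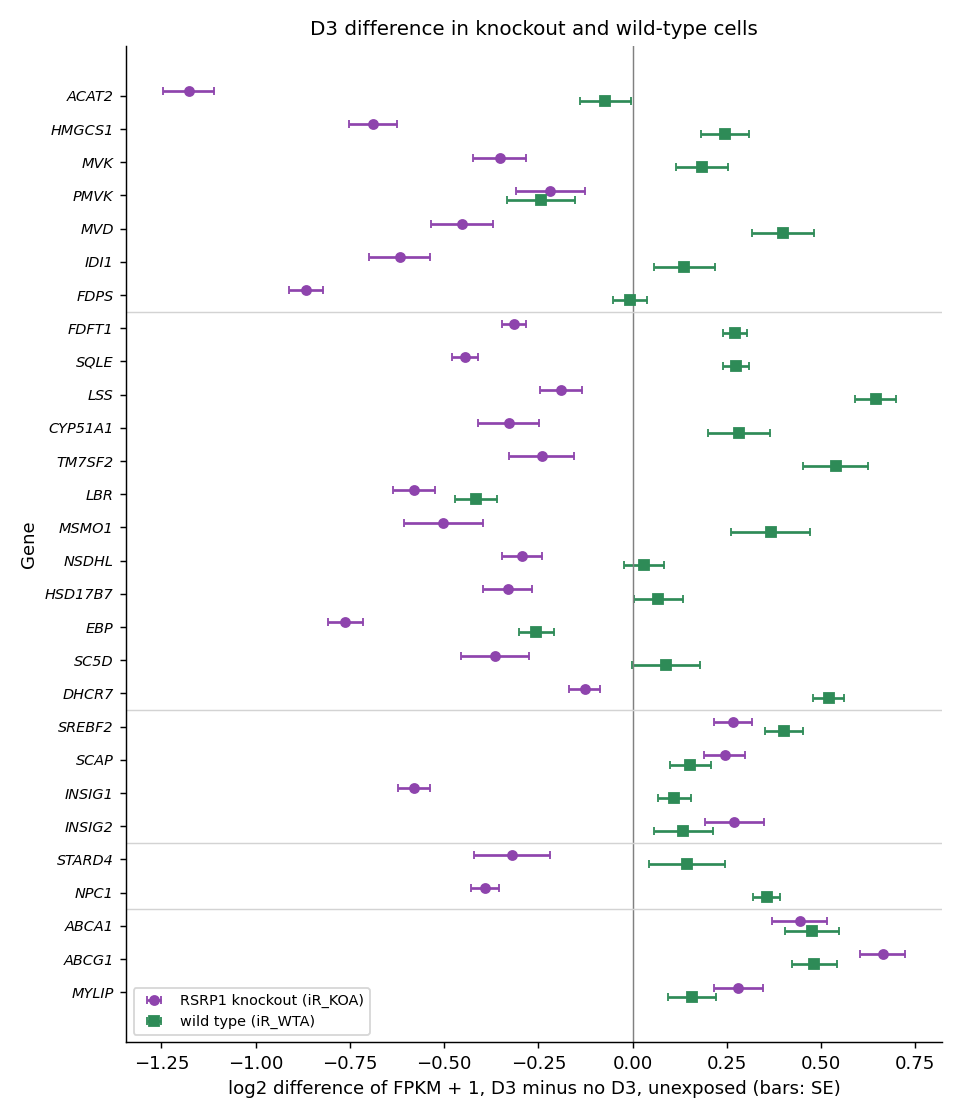
Log2 difference of FPKM + 1 between unexposed libraries with and without D3 (horizontal axis, bars are SE) for each of the 28 genes (vertical axis), in the knockout (purple circles, upper of each pair) and in the wild type (green squares, lower). Every enzyme lies left of 0 in the knockout, and most lie right of 0 in the wild type, whereas ABCA1, ABCG1 and MYLIP lie right of 0 in both.

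The iR comparison was made in unexposed knockout cells, and it shares the iR_KOA libraries with the genotype and D3 comparisons. Here iR went with higher sterol genes: 20 members were higher and 2 lower, against 38.5% of all genes called in either direction (18.7% higher and 19.8% lower). Of the 19 enzymes, 16 were higher and 0 lower, and the median of the 28 genes was 0.34 (-0.001 over all genes). NPC1 had 26.1, 25.6 and 26.8 FPKM in iR_KOA libraries, against 14.7, 13.9 and 14.6 FPKM in KOA libraries (log2 difference 0.82, SE 0.04, adjusted p = 7.41e-15). INSIG1 had 53.1, 54.1 and 51.4 FPKM in iR_KOA libraries, against 31.2, 32.8 and 32 FPKM in KOA libraries (log2 difference 0.71, SE 0.04, adjusted p = 2.12e-12). FDPS had 88.7, 89.8 and 88.6 FPKM in iR_KOA libraries, against 53.6, 56.5 and 57 FPKM in KOA libraries (log2 difference 0.67, SE 0.04, adjusted p = 1.65e-11). The groups were far apart for each. ACAT2 had 37.8, 35.4 and 34.8 FPKM in iR_KOA libraries, against 22.2, 23.1 and 23.2 FPKM in KOA libraries (log2 difference 0.63, SE 0.07, adjusted p = 6.31e-08). HMGCS1 had 33.5, 32.2 and 29.6 FPKM in iR_KOA libraries, against 21, 20.9 and 20.3 FPKM in KOA libraries (log2 difference 0.59, SE 0.06, adjusted p = 8.44e-08). MSMO1 had 35, 36.1 and 28.7 FPKM in iR_KOA libraries, against 22.7, 22.1 and 21.4 FPKM in KOA libraries (log2 difference 0.56, SE 0.10, adjusted p = 0.000141). The 2 lower members were SCAP (-0.20) and ABCG1 (-0.18), the second lost without any of 4 of the 6 libraries. Among the higher members, the ABCA1 call (0.23) was likewise lost without any of 4 of the 6 libraries (adjusted p up to 0.0745). RSRP1 itself averaged 7.68 ± 0.252 FPKM in iR_KOA cells and 2.43 ± 0.291 FPKM in KOA cells (SD, n = 3 each). The mitochondrially encoded share was 24.6% in iR_KOA cells and 28.4% in KOA cells, and its part in the result was not tested.

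A wider list of 36 sterol and isoprenoid genes outside the 28 was counted in the same fit, and 35 were tested (GRAMD1C was too low). With exposure, 7 were higher and 8 lower in KOA (42.9% called, against 41.5% of all genes), 5 higher and 7 lower in iR_KOA (34.3% against 35.3%), and 7 higher and 11 lower in iR_KOA_D3 (51.4% against 45.1%). In the wild type, 4 were higher and 7 lower in iR_WTA (31.4% against 28.6%), and 5 higher and 10 lower in iR_WTA_D3 (42.9% against 41.8%). These shares lie near those of all genes. In all 5 backgrounds, 4 of the 35 were higher, against 5.98% of all genes, and 6 were lower, against 7.87%. Those higher were SPRING1, which SREBP processing needs, TMEM97, a sterol-regulated partner of NPC1, OSBP, a sterol exchanger of the Golgi, and RNF145, a sterol-responsive ubiquitin ligase. Those lower included DHDDS, of dolichol synthesis, PDSS1, of the coenzyme Q side chain, UBE2G2, a ubiquitin-conjugating enzyme, and the sterol movers GRAMD1A and GRAMD1B. In iR_KOA_D3 cells SPRING1 averaged 19.4 ± 0.145 FPKM exposed and 13.8 ± 0.425 FPKM unexposed (SD, n = 3 each; log2 difference 0.46, SE 0.04, adjusted p = 1.52e-09). In KOA cells TMEM97 averaged 67.8 ± 1.17 FPKM exposed and 50.6 ± 0.906 FPKM unexposed (SD, n = 3 each; log2 difference 0.41, SE 0.04, adjusted p = 3.21e-08), and GRAMD1B 6.41 ± 0.185 FPKM exposed and 9.86 ± 0.33 FPKM unexposed (log2 difference -0.55, SE 0.06, adjusted p = 1.16e-07). The log2 difference of DHDDS lay between -0.47 and -0.39 over the 5 backgrounds. In iR_WTA the calls of GRAMD1A, PDSS1 and RNF145 were each lost without some single libraries, with adjusted p up to 0.0873 for GRAMD1A, 0.266 for PDSS1 and 0.125 for RNF145, and in KOA the same held for GRAMD1A (adjusted p up to 0.0675) and UBE2G2 (0.0518). With only the compared groups fitted, the iR_KOA calls of SPRING1 (adjusted p = 0.0778), TMEM97 (adjusted p = 0.0764) and RNF145 (adjusted p = 0.0707) were lost, and with quantile normalization that of PDSS1 in iR_WTA_D3 (adjusted p = 0.0742).

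Between genotypes the wider list split both ways, with 10 higher and 15 lower in the knockout without D3 (71.4% called, against 65.3% of all genes), and 10 higher and 14 lower with D3 (68.6% against 69.1%). POR, the reductase that feeds electrons to SQLE and CYP51A1, averaged 145 ± 4.01 FPKM in iR_KOA cells and 62 ± 1.12 FPKM in iR_WTA cells (SD, n = 3 each; log2 difference 1.21, SE 0.05, adjusted p = 4.92e-17). GRAMD1A (1.06) and MBTPS2, the site-2 protease that releases SREBPs (0.77), were also higher, and CAV1, the caveolar protein (-0.83), was lower. With D3, NR1H3, which encodes a liver X receptor, was lower in the knockout at 5.94 ± 0.0723 FPKM, against 10.6 ± 0.219 FPKM in the wild type (SD, n = 3 each; log2 difference -0.74, SE 0.07, adjusted p = 6.17e-10). With D3, 9 were higher and 9 lower in the knockout (51.4% against 53.7% of all genes) and 11 higher and 10 lower in the wild type (60.0% against 48.7%), led in both by GRAMD1A (0.71 in the knockout and 0.62 in the wild type) and PDSS1 (-0.71 in the knockout and -0.54 in the wild type). The D3 effect differed by genotype for 7 of the 35 genes (20.0% against 17.5% of all genes), 2 higher and 5 lower, among them POR (-0.49), TMEM97 (-0.39), LIPA, the lysosomal lipase (-0.32), and GRAMD1B (0.31). In the iR comparison 8 were higher and 8 lower (45.7% against 38.5%), led by COQ2, of coenzyme Q synthesis (0.49).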

How the data were processed

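RNA from 30 libraries of A549 cells was sequenced by the submitters, 3 libraries in each of 10 groups taken from the sample labels. The authors deposited 1 table of FPKM per gene and library. Per the submitters' processing notes, fastp, HISAT2, HTSeq and the GRCh38 build were used. No version, annotation or strand setting is stated in these sources, so reads of overlapping or antisense genes cannot be told apart. The table also had 6 columns that fit none of the samples, and they were left out.

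For all 25991 genes above 0, the deposited FPKM were whole multiples of what 1 read is worth, within 0.01 of a read, which gave the depth of each library (34620432 to 38939336 reads). A gene was tested if 3 or more libraries reached 1 FPKM, which 12086 genes did, and log2(FPKM + 1) was fitted in R 4.3.3 by limma 3.58.1, using its moderated test with the trend option, 1 mean per group and 20 residual degrees of freedom. P-values were two-sided and Benjamini-Hochberg adjusted over all tested genes within a comparison, with a threshold of 0.05. Fold changes on this scale understate the change of low genes. The fit was also run on simulated reads, with 200 genes changed in exposed KOA libraries only, and the outcome is not reported here. Low genes were not among those changed, and far more genes were called in the exposure comparisons. The run therefore cannot speak for low genes or for so many changes. Within groups, libraries correlated at 0.9899 to 0.998 across genes, and no pair within a group agreed within counting noise.

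The members and lists were chosen with earlier results of these data known. Per-library values are given for up to 8 called members with the largest log2 difference in an exposure comparison (up to 6 in the genotype, D3 and iR comparisons, up to 4 in an interaction) and for members called in the same direction in all 5 backgrounds. Genes of the wider list were named by a like rule of size, and the markers and cell line checks were fixed lists. Not every gene of the wider list is reported here by name. Same-numbered libraries were checked for pairing by the correlation of their deviations from the group means. Every pair exceeded 0.1 only for exposure in iR_KOA_D3 (0.115 to 0.168), and nothing in the labels ties the numbers to a day or culture. Alternatives were a pseudocount of 0.1, no filter, median-of-ratios scaling, quantile normalization, a fit of the compared groups only, a replicate block, leaving out each library, and voom on the recovered reads, which was chosen after the data were seen. Promoter sequences and gene positions came from RefSeq (GRCh38.p14).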

Additional observations from a re-analysis of the deposited data

Results flagged for a closer look

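The effect of D3 in unexposed iR cells was lower in the knockout than in the wild type, by a limma test of the difference itself, for 20 of the 28 genes. Given as log2 differences of differences (knockout minus wild type), the values in the mevalonate segment were ACAT2 (-1.10), HMGCS1 (-0.93), MVK (-0.54), MVD (-0.85), IDI1 (-0.76) and FDPS (-0.86). In the squalene and sterol segment they were FDFT1 (-0.59), SQLE (-0.72), LSS (-0.83), CYP51A1 (-0.61), TM7SF2 (-0.78), MSMO1 (-0.87), NSDHL (-0.32), HSD17B7 (-0.40), EBP (-0.51), SC5D (-0.45) and DHCR7 (-0.65). Outside the enzymes they were INSIG1 (-0.69), STARD4 (-0.46) and NPC1 (-0.75). All 20 values were negative, and 17.5% of all tested genes passed the same test.

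The effect of exposure differed between genotypes in iR cells with D3 for MYLIP (-0.47), HSD17B7 (-0.41) and SQLE (-0.21), knockout minus wild type. It differed with D3, as the exposure difference with D3 minus that without it, for INSIG1 in the knockout (0.38) and for INSIG1 (0.38), HMGCS1 (0.39) and MYLIP (0.49) in the wild type. It differed with iR in the knockout for SQLE (0.18), as iR_KOA minus KOA. Over all tested genes, 2.38% passed the genotype test, 4.14% the D3 test in the knockout, 1.67% that in the wild type and 5.08% the iR test. The 1 member of 28 called in the D3 test in the knockout was a smaller share than that of all genes, as was the 1 in the iR test. The SQLE call with iR was lost without any of 5 of the 12 libraries, and the HMGCS1 call without any of 6.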

How the results depend on the processing

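Of 220 calls of a member in a comparison, 177 held without any 1 library and under every other setting, 43 were lost under at least 1 of these, and 0 changed direction. Calls were lost for 11 of them with median-of-ratios scaling, 17 with no filter, 15 with only the compared groups fitted, 1 with a pseudocount of 0.1, 14 with quantile normalization and 4 with voom on the recovered reads. The exposure by D3 count in iR_KOA was 2 with voom, against 1. The exposure by D3 count in iR_WTA was 1 with only the compared groups fitted, against 3. The exposure by iR count in KOA was 2 with quantile normalization and 2 with voom, against 1. The cause was not tested.

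Leaving out 1 library gave, for exposure, 8 to 9 called members in KOA (10 with all libraries), 11 to 16 in iR_KOA, 14 to 19 in iR_KOA_D3, 10 to 14 in iR_WTA and 12 to 16 in iR_WTA_D3. The genotype counts were 21 to 22 without D3 and 24 to 25 with it, the D3 counts 25 to 27 in iR_KOA and 15 to 19 in iR_WTA, and the iR count 20 to 22. The interaction counts were 0 for exposure by genotype in iR, 2 to 4 for the same with D3, 1 to 2 for exposure by D3 in iR_KOA, 2 to 3 in iR_WTA, 0 to 2 for exposure by iR and 19 to 21 for D3 by genotype.

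With the replicate number as a block, 1 of the 220 calls was lost (MYLIP, D3 in iR_WTA, adjusted p = 0.0529). For exposure in iR_KOA_D3, where same-numbered libraries deviated together, the blocked count was 19 (12 higher and 7 lower), against 18. In the other comparisons the lowest pair correlation lay between -0.325 and 0.065.

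Depth of 140 to 23133 reads per member and library, and 3 libraries per group, limit small differences of low genes such as ABCG1 most. FPKM are scaled to the reads of a library, so a change in total RNA per cell is not measured.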
